A study of Homo sapiens with 6 samples.

Results

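The NRF2 antioxidant genes described here are 10 of the 58217 annotated genes in the files: NFE2L2, which encodes the transcription factor NRF2, its inhibitor KEAP1, and 8 genes known as NRF2 targets (NQO1, HMOX1, GCLC, GCLM, TXNRD1, SRXN1, GSR and GPX4). They were chosen by name and not by any measured value, and all 10 had enough reads to be among the 15984 genes tested. The samples are astrocytes made from H1, an established human embryonic stem cell line. The control group is labelled as forebrain in character and the other group as ventral midbrain, with 3 libraries each that carry the replicate numbers 2, 3 and 4. The labels name no genetic change or agent, and do not say whether the libraries came from separate cultures, and every p-value therefore speaks of the spread among these 6 libraries alone, which may be technical.

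Levels are given in CPM, counts per 1000000 reads of the library after TMM scaling, from 3′ end libraries of polyadenylated RNA that held 11617935 to 15391082 estimated reads. Of 15 astrocyte markers 14 were tested, and edgeR called 3 higher in ventral midbrain (AQP4, SLC1A3 and NFIA) and 0 lower, where it called 2.15% of all genes tested. Fold changes were negative for 6 of the 14, among them SOX9, CD44, GJA1 and ALDOC. With the replicate number as a block 3 were higher and 3 lower, against 3.63% and 4.5% of all genes tested. No read was assigned to HEPACAM. The summed level of 12 mesenchymal and fibroblast markers was 1204 to 1871 CPM in control and 649 to 819 CPM in ventral midbrain libraries. Without COL1A1, the highest gene, it was 533 to 888 against 414 to 508 CPM. edgeR called 4 of the 12 lower and 0 higher, against 1.09% lower over all genes tested. Fold changes were negative for 9 and positive for 3, namely DCN (0.41 against 1.81 CPM), LUM (0.52 against 2.80 CPM) and THY1 (262 CPM in both groups). For 12 neuron markers the sums were 1284 to 2027 and 718 to 1193 CPM. Of 11 tested edgeR called 0, DESeq2 4 and voom 0, with an unadjusted edgeR p under 0.05 for 4. Over all genes tested these shares were 2.15%, 4.67%, 2.1% and 12%. The lower neuron sum came from STMN2, at 1061 against 449 CPM (edgeR adjusted p = 0.54). The other 11 neuron markers summed to 561, 644 and 571 CPM in control replicates 2, 3 and 4, and to 623, 568 and 499 CPM for ventral midbrain, which overlap. TUBB3, MAP2, SYT1 and SNAP25 had fold changes near or above 0, while 7 of the 11 tested were negative and 5 were lower with the block. Microglia and endothelial markers summed to 5.05 to 10.02 CPM in control and 3.06 to 7.02 CPM in ventral midbrain, with AIF1 and P2RY12 at 0. The libraries numbered 3 stood apart in 14 cell cycle genes, at 2834 CPM in control and 3918 CPM in ventral midbrain, against 803 to 1158 CPM in the other libraries. Since these are bulk samples, fewer cells of a type and less RNA per cell cannot be told apart.

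NRF2 is held at a low level in unstressed cells because KEAP1 binds it and hands it to a CUL3 ubiquitin ligase for degradation. Oxidants and electrophiles modify KEAP1, and NRF2 then accumulates and, paired with a small MAF protein, binds the antioxidant response element beside genes of glutathione, thioredoxin, quinone and haem metabolism. In the brain this programme is known to be strongest in astrocytes, which supply neurons with glutathione precursors. Because NRF2 is controlled largely at the protein level, its mRNA level does not give its activity.

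The core of the antioxidant response element, TGACNNNGC, was searched on both strands of the RefSeq promoter windows (GRCh38.p14), which run from 250 bases before to 50 bases after a start site. Of all 35116 windows 13.3% held a match, as did 4 of the 13 windows of the members (30.8%) and 28 of the 140 windows of the pathway genes described further on (20%). Of the 8 members searched, 3 held at least 1 match in some window (KEAP1, GCLM and TXNRD1), as did 27 of the 99 pathway genes searched. A gene with several windows has more chances to match, and the share per gene over all genes was not counted. TXNRD1 alone held 2 of the 4 matching windows of the members. NFE2L2, NQO1, GCLC, SRXN1 and GPX4 held none in these windows, and sequence farther from a start site was not searched. HMOX1 and GSR were not searched. The matches that lie wholly before a start site are shown because this core is known to be read by NRF2 and by the repressors BACH1 and BACH2. Each is read 5′ to 3′ along the strand that carries the match, with the matched letters in capitals.
KEAP1, chr19:10502807-10502835, on the gene's strand: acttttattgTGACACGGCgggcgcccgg
KEAP1, chr19:10502784-10502812, on the opposite strand: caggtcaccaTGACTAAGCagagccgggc
GCLM, chr1:93909446-93909474, on the opposite strand: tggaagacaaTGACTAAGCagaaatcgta
TXNRD1, chr12:104215670-104215698, on the gene's strand: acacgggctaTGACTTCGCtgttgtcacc
TXNRD1, chr12:104286920-104286948, on the opposite strand: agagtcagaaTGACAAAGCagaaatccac
The match of GCLM ends 25 bases before the start site, and those of TXNRD1 end 90 and 93 bases before its 2 start sites. KEAP1, the inhibitor, and GCLM, a target, shared the 9 letters TGACTAAGC. A match is a description of the letters, and no binding was measured in these samples.

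None of the 10 genes passed edgeR's quasi-likelihood test of ventral midbrain against control (Benjamini-Hochberg adjusted p under 0.05 over all genes tested), against 2.15% of all genes tested. By direction the background was 1.06% higher and 1.09% lower in ventral midbrain. At an unadjusted p under 0.05 there was 1 of 10, NQO1, against 12% of all genes. DESeq2 called 0 of 10, against 4.67% of all genes (2.12% higher, 2.55% lower), and limma voom called 0 of 10, against 2.1% (1.01% higher, 1.09% lower). The deposited normalized values gave 0 of 10 against 1.14% (0.551% higher, 0.589% lower), and a gene-length offset gave 0 of 10 against 1.08% (0.513% higher, 0.563% lower). Positive fold changes were found in 6 members and negative ones in 4, and the median was 0.03 on the log2 scale, against 0.01 over all genes tested. With the replicate number as a block in the fit, 1 of the 10 passed, NQO1, which was lower, against 8.13% of all genes (3.63% higher, 4.5% lower). The groups did not overlap in 3 of 10 members, 1 higher and 2 lower in ventral midbrain, against 17.9% of all genes tested (9.17% higher, 8.75% lower). The libraries numbered 3, left out together, changed none of the 10 calls.

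**Figure D1:**
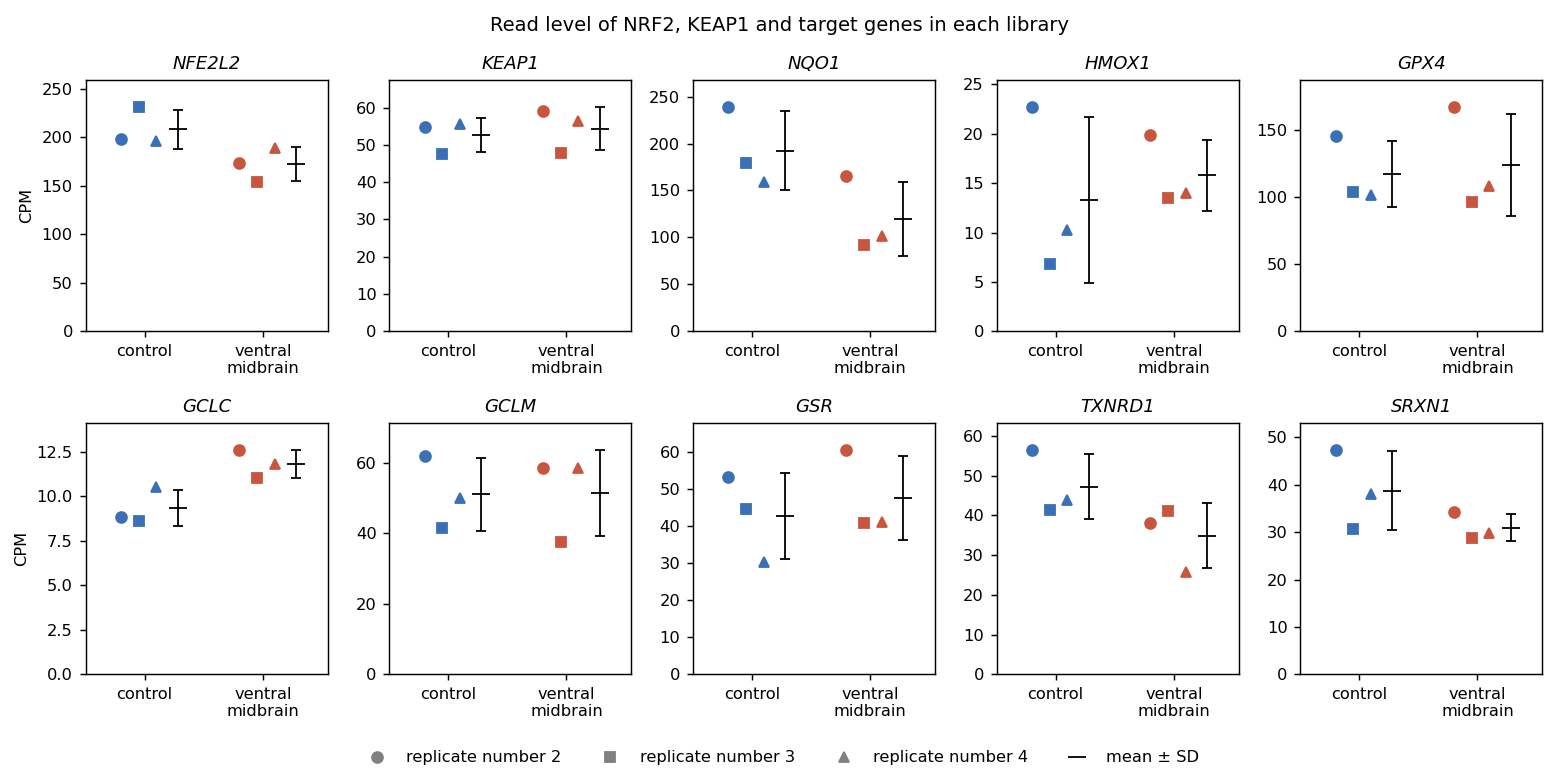
Read level (CPM, linear axes from 0, each panel with its own scale) of the 10 genes in the 3 control (blue) and 3 ventral midbrain (red) libraries, with marker shapes for the replicate numbers and bars for the mean ± SD. The ventral midbrain libraries lie below the control library of the same number for NQO1 in each of 3 pairs, and HMOX1 ranges from 6.845 to 22.7 CPM within the control group.

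NFE2L2 (chromosome 2, 177227595 to 177392697, GRCh38) encodes the activator itself. Its level was 198, 232 and 196 CPM in control replicates 2, 3 and 4, and 173, 154 and 189 CPM in ventral midbrain replicates 2, 3 and 4. All control libraries were above all ventral midbrain libraries, with control replicate 4 and ventral midbrain replicate 4 almost level. The mean was 208 ± 20.1 CPM in control and 172 ± 17.5 CPM in ventral midbrain (SD, n = 3). The log2 fold change was -0.27 ± 0.15 (SE; 95% confidence interval -0.61 to 0.06; edgeR adjusted p = 0.55). A fall to 0.655 of the control level and a rise to 1.04 times that level both lie at the edges of this interval.

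KEAP1 (chromosome 19, 10486120 to 10503741), the sensor that marks NRF2 for degradation, had nearly the same level in both groups. It was at 54.9, 47.5 and 55.7 CPM in control and at 59.1, 47.8 and 56.3 CPM in ventral midbrain replicates 2, 3 and 4. Both libraries numbered 3 were the lowest of their group, and the groups overlapped, although the ventral midbrain library was the higher one in 3 of 3 pairs. The fold change on the log2 scale was 0.05 ± 0.16 (SE; interval -0.30 to 0.39; edgeR adjusted p = 0.96).

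The ratio of NFE2L2 to KEAP1 reads within a library does not depend on how libraries are scaled. On the log2 scale it was 1.85, 2.29 and 1.81 in the control replicates 2, 3 and 4, against 1.55, 1.69 and 1.75 for ventral midbrain. Each ventral midbrain library was below each control library, by a difference of means of -0.32. With TPM in place of reads the groups overlapped, since ventral midbrain replicate 3 lay above control replicate 4, at 1.605 against 1.512. The ratio of NFE2L2 to BACH1, a repressor that competes for the same DNA element, was 3.13, 3.96 and 3.78 in the control libraries, against 3.30, 3.30 and 3.72 for ventral midbrain. These values overlapped, and their difference of -0.18 became 0.43 when TPM replaced reads.

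NQO1 (chromosome 16, 69706996 to 69726951), a quinone reductase often used as the readout of NRF2 activity, had the largest fold change of the 10. It was at 239, 179 and 159 CPM in control and at 165, 92.2 and 101 CPM in ventral midbrain replicates 2, 3 and 4. In both groups replicate 2 was the highest library, and ventral midbrain replicate 2 lay just above control replicate 4, so the groups overlapped. Within a number the ventral midbrain library was lower in 3 of 3 pairs, by log2 differences of -0.53, -0.96 and -0.65. The mean was 193 ± 41.8 CPM in control and 119.7 ± 39.9 CPM in ventral midbrain (SD, n = 3), and the log2 fold change was -0.69 ± 0.24 (SE; interval -1.23 to -0.14; edgeR unadjusted p = 0.019, adjusted p = 0.26). With the replicate block it was -0.71 ± 0.12 (edgeR adjusted p = 0.0023), and over 16 alternatives the adjusted p ran from 0.0023 to 0.55. The fit with no filter on low counts called it too (edgeR adjusted p = 0.0056). The mesenchymal marker sum above was lower in the same libraries, and its part in this difference was not tested.

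HMOX1 (chromosome 22, 35380361 to 35394214), the inducible enzyme that opens the haem ring, varied most among the control libraries. It was at 22.7, 6.845 and 10.3 CPM in control and at 19.9, 13.5 and 14.0 CPM in ventral midbrain replicates 2, 3 and 4. Control replicate 2 was the highest and control replicate 3 the lowest of all 6 libraries. These values rest on 80 to 311 reads per library. The coefficient of variation was 62.9% in control against 7.54% from read counting alone, and 22.6% in ventral midbrain. Between the group means the log2 fold change was 0.25 ± 0.41 (SE; interval -0.68 to 1.17; edgeR adjusted p = 0.90). Without control replicate 3 it turned to -0.07.

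**Figure D2:**
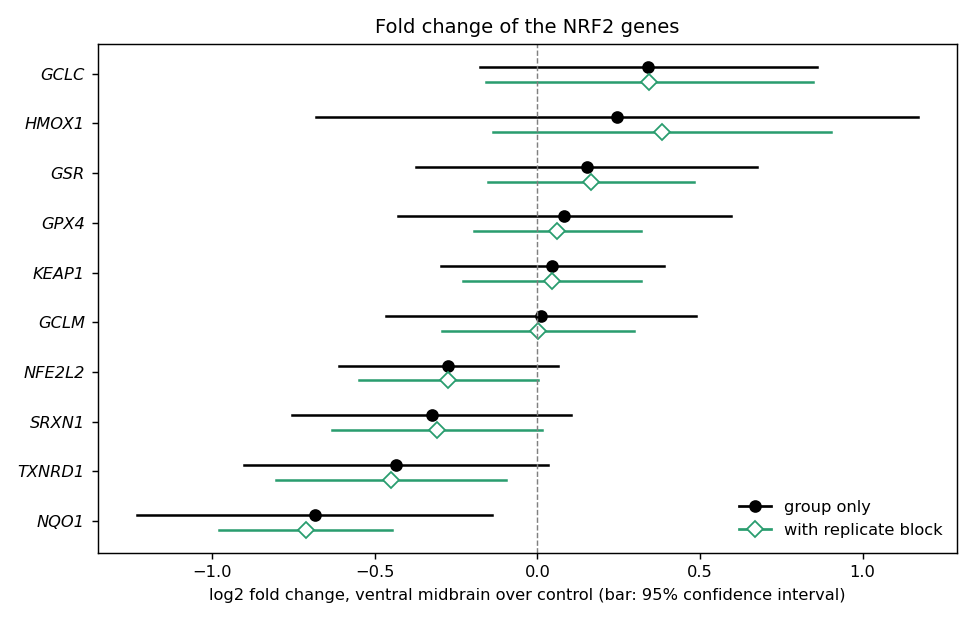
Log2 fold change of ventral midbrain over control for the 10 genes, with 95% confidence intervals, from the fit by group only (black circles) and with the replicate block (green diamonds). The interval of NQO1 lies below 0 in both fits, at -1.23 to -0.14 in the first, and that of HMOX1 is the widest.

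Of the glutathione genes, GCLC (chromosome 6, 53497341 to 53616970) encodes the catalytic subunit of glutamate-cysteine ligase, the rate-limiting enzyme of glutathione synthesis. It was at 8.85, 8.64 and 10.5 CPM in control and at 12.6, 11.1 and 11.8 CPM in ventral midbrain replicates 2, 3 and 4, and the groups did not overlap. These levels rest on 101 to 194 reads per library. Ventral midbrain differed from control by a log2 fold change of 0.34 ± 0.23 (SE; interval -0.18 to 0.86; edgeR adjusted p = 0.66). The ventral midbrain library was higher in 3 of 3 pairs.

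GCLM (chromosome 1, 93885205 to 93909456) encodes the modifier subunit of the same ligase, and its promoter window holds the match shown above. It was at 62.0, 41.4 and 49.8 CPM in control and at 58.3, 37.4 and 58.6 CPM in ventral midbrain replicates 2, 3 and 4. Both libraries numbered 3 were again the lowest. The means of 51.1 ± 10.3 and 51.4 ± 12.1 CPM (SD, n = 3) gave a log2 fold change of 0.01 ± 0.22 (SE; interval -0.47 to 0.49; edgeR adjusted p = 0.995).

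GSR, on chromosome 8, encodes the reductase that regenerates glutathione with NADPH. It was at 53.3, 44.7 and 30.3 CPM in control and at 60.6, 40.8 and 41.2 CPM in ventral midbrain replicates 2, 3 and 4. The groups overlapped, and the spread within control was larger than the difference between groups. The log2 fold change was 0.15 ± 0.24 (SE; interval -0.37 to 0.68; edgeR adjusted p = 0.89).

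GPX4 (chromosome 19, 1103926 to 1106791) is the selenoenzyme that uses glutathione to reduce lipid peroxides in membranes and so holds back ferroptosis. It was at 145, 104 and 102 CPM in control and at 167, 96.3 and 108 CPM in ventral midbrain replicates 2, 3 and 4. Replicate 2 was the highest library of both groups. The fold change on the log2 scale was 0.08 ± 0.23 (SE; interval -0.43 to 0.59; edgeR adjusted p = 0.95).

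Both thioredoxin-side genes had negative fold changes that missed the threshold. TXNRD1 (chromosome 12, 104215779 to 104350305), the selenoenzyme that reduces thioredoxin, was at 56.5, 41.2 and 43.9 CPM in control and at 38.1, 41.0 and 25.7 CPM in ventral midbrain replicates 2, 3 and 4. The groups did not overlap, but control and ventral midbrain replicate 3 differed by a log2 value of only -0.01. Between the group means the log2 fold change was -0.44 ± 0.21 (SE; interval -0.90 to 0.03; edgeR adjusted p = 0.46; blocked, 0.12), where blocked stands for the fit with the replicate number as a block.

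SRXN1 (chromosome 20, 646615 to 653370), which repairs overoxidised peroxiredoxins, was at 47.3, 30.7 and 38.1 CPM in control and at 34.2, 28.8 and 29.8 CPM in ventral midbrain replicates 2, 3 and 4. Control replicate 2 was the highest library and the groups overlapped. Ventral midbrain differed from control by a log2 fold change of -0.32 ± 0.19 (SE; interval -0.75 to 0.10; edgeR adjusted p = 0.59). Across the members, 5 had a fold change of the same sign in all 6 fits that left out 1 library (NFE2L2, NQO1, GCLC, TXNRD1 and SRXN1), and KEAP1, HMOX1, GCLM, GSR and GPX4 did not.

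The reads of some members were assigned to 1 transcript and those of others were split. For HMOX1, GSR and SRXN1 a single transcript took 100% of the reads in each library, and for KEAP1 and NQO1 the leading transcript took at least 95.1%. NFE2L2 was split: transcript NFE2L2-202 took 72.2% ± 5.8 (SD, n = 3) in control and 73.0% ± 1.2 in ventral midbrain, and NFE2L2-210, annotated as a retained intron and ending 3574 bases from the end of the former, took 23.2% ± 4.1 and 21.9% ± 2.8. The share of this retained-intron transcript was 18.7% to 27.5% over the 6 libraries and overlapped between groups. NFE2L2 also overlaps AGPS on the opposite strand, a gene with 2038 reads in all against 15277 for NFE2L2.

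For GPX4, 75.4% to 92.5% of the reads went to GPX4-208, also annotated as a retained intron. Its end lies within 4 bases of that of the coding transcripts GPX4-206 and GPX4-212, so a 3′ end read cannot assign these transcripts, and only the sum over the gene is used here. GCLC-215 and GCLC-206 end at the same base, and the share of GCLC-215 ran from 0% in ventral midbrain replicate 4 to 98.3% in ventral midbrain replicate 2. TXNRD1-206, which ends 1639 bases from TXNRD1-208, held 8.9% and 19.7% of the reads in control replicates 2 and 3 and 0% in the other libraries.

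**Figure D3:**
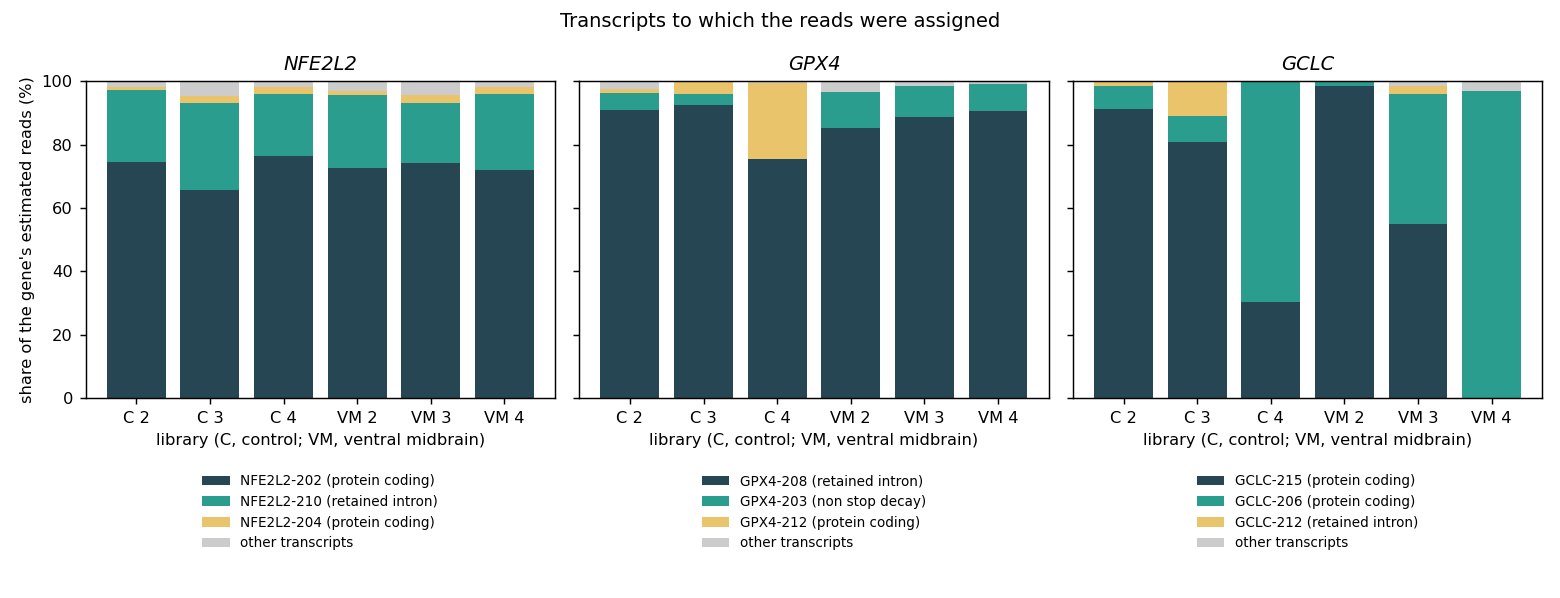
Share (%) of the reads of NFE2L2, GPX4 and GCLC that was assigned to each transcript in the control (C) and ventral midbrain (VM) libraries, as stacked bars. NFE2L2-210 holds 18.7% to 27.5% in the 6 libraries, while the 2 leading GCLC transcripts, which share their end, trade places from library to library.

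Around the members, 123 further genes of the pathway were grouped by role in 8 lists, and 114 of them were tested. PRDX6 fell and SELENOI rose past edgeR's test, so 2 of 114 (1 higher and 1 lower) passed, against 2.15% of all genes. Negative fold changes numbered 78 and positive ones 36, around a median of -0.12, while 48.3% of the fold changes of all genes tested were negative. With the replicate block 4 were higher and 17 lower, against 3.63% and 4.5% of all genes. Genes that moved in the marker lists named above stand beside these counts, and their part was not tested. The lists were chosen with earlier results of these data known, so the counts and the median are a description only. The block takes the replicate numbers as pairs, although no label says what they share. For the single lists below, the shares over all genes tested are 4.67% for DESeq2 and 2.1% for voom. An unadjusted edgeR p under 0.05 was found for 12% of all genes tested.

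PRDX6 (chromosome 1, 173477266 to 173488807), a peroxiredoxin that uses glutathione and repairs phospholipid peroxides, was at 229, 222 and 222 CPM in control and at 146, 123 and 128 CPM in ventral midbrain replicates 2, 3 and 4. The control libraries lay close together and well above all ventral midbrain libraries. Their coefficient of variation of 1.76% was below the 1.86% from read counting alone. The fall was from 224 ± 3.95 to 132 ± 12.3 CPM (SD, n = 3), or -0.76 ± 0.14 in log2 units (SE; edgeR adjusted p = 0.021). The call was lost in all 6 fits that left out 1 library (edgeR adjusted p from 0.0505 to 0.0895), without both libraries numbered 3 (0.0835), with the gene-length offset (0.14) and on the deposited normalized values (0.13), while the fold change stayed between -0.85 and -0.66 over 16 alternatives.

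SELENOI (chromosome 2, 26308547 to 26395891), a selenoprotein that makes phosphatidylethanolamine, was at 44.5, 42.6 and 42.7 CPM in control and at 77.7, 76.8 and 82.3 CPM in ventral midbrain replicates 2, 3 and 4. The groups did not overlap. The coefficient of variation in control was 2.46%, below the 4.24% from read counting alone, so it understates the spread. Its rise was 0.87 ± 0.14 in log2 units (SE; edgeR adjusted p = 0.011). It missed the threshold when control replicate 4 or ventral midbrain replicate 4 was left out (edgeR adjusted p = 0.0567 and 0.0502), with the gene-length offset (0.087) and on the deposited normalized values (0.080). Like GPX4 and TXNRD1 it is a selenoprotein, but it is a lipid synthesis enzyme and no antioxidant enzyme.

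**Figure D4:**
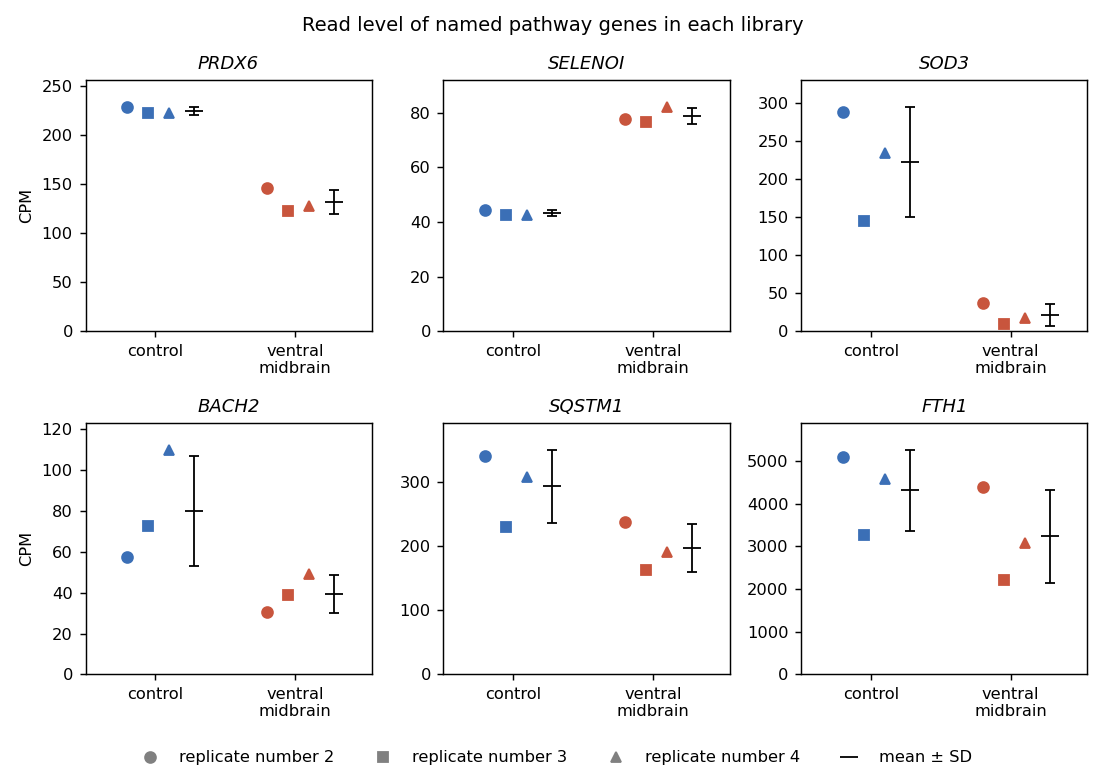
Read level (CPM, linear axes from 0, each panel with its own scale) of 6 pathway genes in the 3 control (blue) and 3 ventral midbrain (red) libraries, with marker shapes for the replicate numbers and bars for the mean ± SD. PRDX6 at 132 against 224 CPM and SELENOI at 78.9 against 43.2 CPM are the 2 genes past the test, and FTH1 overlaps between the groups.

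Of the 12 regulators and partners of NRF2, all tested, 0 passed edgeR's test. DESeq2 called 1 and voom 0, and the unadjusted edgeR p was under 0.05 for 2. BACH2, a repressor of the same element, was at 57.3, 72.7 and 109.8 CPM in control and at 30.5, 38.7 and 49.1 CPM in ventral midbrain replicates 2, 3 and 4 (log2 fold change -1.02 ± 0.26; edgeR adjusted p = 0.091; blocked, 0.00025). Its groups did not overlap, and over 16 alternatives its adjusted p ran from 1.3e-05 to 0.42. SQSTM1, the autophagy adaptor p62 that captures KEAP1 and is itself an NRF2 target, was at 341, 231 and 308 CPM in control and at 238, 163 and 191 CPM in ventral midbrain (log2 fold change -0.57 ± 0.20; edgeR adjusted p = 0.22; blocked, 0.0054). Its groups overlapped, with a lower ventral midbrain library in each pair, and its adjusted p ran from 0.0054 to 0.52.

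Of the 26 tested genes of glutathione synthesis, use and cystine uptake, 0 passed edgeR's test. DESeq2 called 1 and voom 0, and the unadjusted edgeR p was under 0.05 for 4. With the replicate block 2 were higher and 4 lower. GPX7, a peroxidase of the endoplasmic reticulum, came closest, at 34.6 CPM in control against 19.6 CPM in ventral midbrain (edgeR adjusted p = 0.071; blocked, 0.0054). SLC3A2, the heavy chain of the cystine transporter, was at 139 against 189 CPM (edgeR adjusted p = 0.31; blocked, 0.032). GSTP1, a glutathione transferase, was at 756 against 572 CPM (edgeR adjusted p = 0.37; blocked, 0.045). The other blocked calls, named after their values were seen, were GPX3 (blocked edgeR adjusted p = 0.043, higher), GSTM1 (0.0068, lower) and MGST1 (0.043, lower). SLC3A2 and GSTP1 carry the letters TGACTCAGC before their start sites, on the gene's strand.
SLC3A2, chr11:62881652-62881680: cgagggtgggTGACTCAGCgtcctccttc
GSTP1, chr11:67583736-67583764: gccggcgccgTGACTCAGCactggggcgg
ME1 and AIFM2, of other lists, carry the same 9 letters before their start sites, on the gene's strand and the opposite strand. Neither SLC3A2 nor GSTP1 passed edgeR's test by group only, so nothing is read from their directions.

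In the thioredoxin and peroxiredoxin list of 17 tested genes, PRDX6 was the one call of edgeR's test. DESeq2 and voom each called 0 higher and 1 lower. The unadjusted edgeR p was under 0.05 for 3 genes, 1 higher and 2 lower. With the block 0 were higher and 2 lower. PRDX4, a peroxiredoxin of the endoplasmic reticulum, was at 85.1 CPM in control against 59.6 CPM in ventral midbrain (edgeR adjusted p = 0.12; blocked, 0.015). TXNIP, an inhibitor of thioredoxin, was at 544, 256 and 551 CPM in control and at 468, 133 and 517 CPM in ventral midbrain replicates 2, 3 and 4 (edgeR adjusted p = 0.93). Both libraries numbered 3, the ones high in cell cycle genes, were the lowest for TXNIP.

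Among 18 tested quinone, aldehyde and NADPH enzymes 0 passed edgeR's test. The unadjusted p was under 0.05 for 3 of them, and DESeq2 and voom called 0. The list's median log2 fold change was -0.27. IDH1, a cytosolic source of NADPH, was at 81.8 against 111 CPM (edgeR adjusted p = 0.18; blocked, 0.034), ALDH3A2, a fatty aldehyde dehydrogenase, at 73.9 against 44.8 CPM (edgeR adjusted p = 0.26; blocked, 0.0024), and TKT, a transketolase, at 217 against 160.3 CPM (0.35; blocked, 0.061). With the block 1 gene of this list was higher and 2 lower, the remaining one being AKR1C1, an aldo-keto reductase named after its values were seen (93.7 against 60.1 CPM; blocked edgeR adjusted p = 0.0048).

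Of 12 haem and iron genes, all tested, 0 passed edgeR's test. The unadjusted p was under 0.05 for 2 of them, and DESeq2 and voom called 0. FTH1, the ferritin heavy chain, was at 5102, 3266 and 4585 CPM in control and at 4395, 2220 and 3092 CPM in ventral midbrain replicates 2, 3 and 4 (edgeR adjusted p = 0.62; blocked, 0.021). The groups overlapped, with the ventral midbrain library lower in 3 of 3 pairs. BLVRB, a biliverdin reductase, was at 28.7 against 17.2 CPM (0.26; blocked, 0.026), and the iron exporter SLC40A1 at 8.7 against 13.9 CPM (0.37). With the block 3 genes of this list were lower, the other being FTL, the ferritin light chain, named after its values were seen (3178 against 2204 CPM; blocked edgeR adjusted p = 0.0055).

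All 4 superoxide and peroxide enzymes had negative fold changes, and 0 passed edgeR's test. DESeq2 called 1 and voom 1, and the unadjusted edgeR p was under 0.05 for 1. SOD3 (chromosome 4, 24789912 to 24800842), the secreted superoxide dismutase, was at 288, 145 and 234.4 CPM in control and at 37.2, 9.49 and 18.0 CPM in ventral midbrain replicates 2, 3 and 4. Every control library was far above every ventral midbrain library. The log2 fold change was -3.36 ± 0.58 (SE; interval -4.81 to -1.92; edgeR adjusted p = 0.059; blocked, 5.8e-07), and over 16 alternatives the adjusted p ran from 5.8e-07 to 0.21. It was called by DESeq2 and by voom, on the deposited normalized values and with the gene-length offset, as did the fits without ventral midbrain replicate 2 (0.0128), without ventral midbrain replicate 3 (0.0278) and without both libraries numbered 3 (0.00547). SOD2, the mitochondrial enzyme, was at 176 against 112 CPM (edgeR adjusted p = 0.58; blocked, 0.0025), and SOD1, the cytosolic one, at 250.1 against 219 CPM (0.74).

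None of the 9 tested ferroptosis genes passed edgeR's test. The unadjusted p was under 0.05 for 0 of them, and DESeq2, voom and the fit with the replicate block called 0. The ones with the smallest p, STEAP3 and DHODH, had edgeR adjusted p = 0.45 and 0.57, and SCD, a fatty acid desaturase, was at 358 against 289 CPM (0.75). Of 16 tested selenoprotein genes SELENOI rose and 15 did not pass. DESeq2 called 1 higher and 1 lower, voom 1 higher and 0 lower, and the unadjusted edgeR p was under 0.05 for 3. With the block 1 was higher and 2 were lower. The blocked calls were SELENOI, SELENOP and, named after its values were seen, SELENOM (101 against 61.1 CPM; blocked edgeR adjusted p = 0.0044). SELENOP, the selenium carrier, was at 74.2, 56.1 and 116 CPM in control and at 52.3, 26.7 and 43.3 CPM in ventral midbrain replicates 2, 3 and 4 (edgeR adjusted p = 0.21; blocked, 0.0020). Its groups did not overlap, by the margin between 52.3 and 56.1 CPM, and DESeq2 called it lower (DESeq2 adjusted p = 0.026). SELENOW, a small selenoprotein, was at 161 against 136 CPM (0.58).

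**Figure D5:**
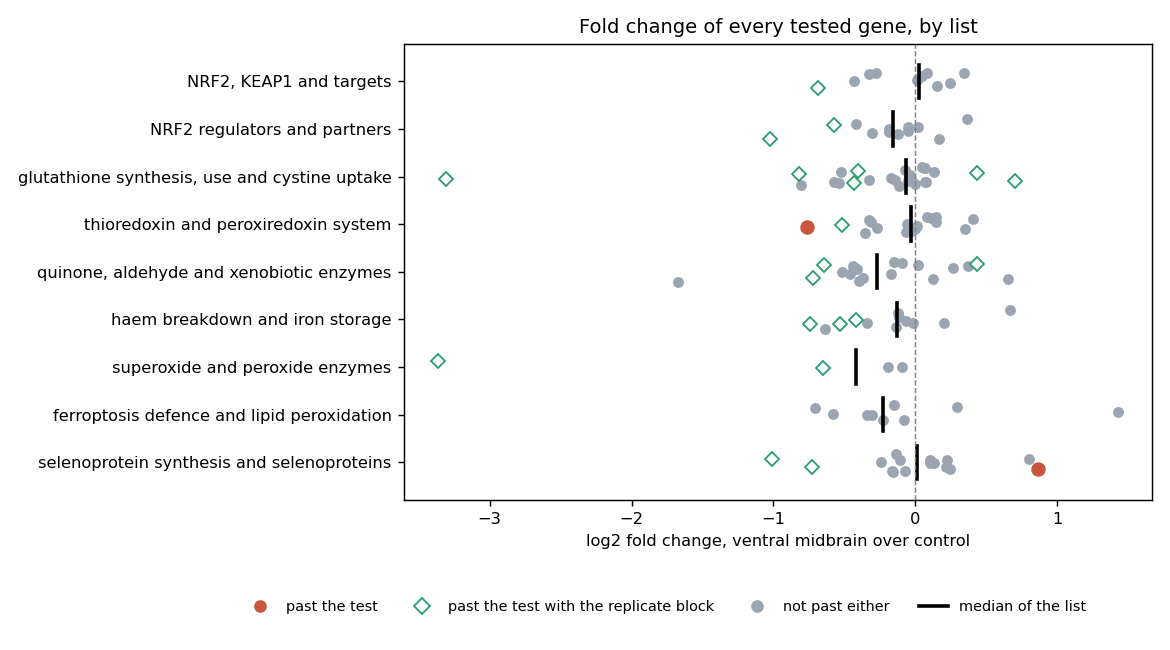
Log2 fold change of ventral midbrain over control for each tested gene of the 10 NRF2 genes and of the 8 pathway lists, with red circles for genes past the test, green diamonds for those past it with the replicate block only, grey circles for the others and black lines for the list medians. The members' median of 0.03 and those of the lists, from -0.42 to 0.01, lie beside 0.01 for all genes tested.

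The genes whose log2 CPM over the 6 libraries was most like that of NQO1, among 7416 other protein-coding genes with an average log2 CPM of at least 4, were ABL2, MRPL14 and RPL4 (Pearson r = 0.990, 0.990 and 0.988). For HMOX1 they were ELOF1, KRT10 and PSMC4 among 7417 (r = 0.990, 0.988 and 0.986). None of these 6 was a gene of the pathway lists. The 6 points share libraries and scaling, and such values are a description only.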

How the data were processed

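The submitters' processing notes list Salmon (no version), GRCh38.p13 as the build, and DESeq2 1.27.12. The authors deposited, per library, estimated counts, TPM and effective lengths for 226608 transcripts, and a table of normalized gene signal whose scaling no label or header names. The TPM values deposited by the authors served the ratios between genes and the gene-length offset, where they weighted the effective lengths of a gene's transcripts. Estimated counts were summed per gene with GENCODE 29 (GRCh38), which matched 205225 transcripts (90.6%), unmatched ones holding 0.992% to 1.12% of reads, and rounded. Genes were filtered with filterByExpr, scaled by TMM and tested by the robust quasi-likelihood method of edgeR 4.0.16 under R 4.3.3, with no length factor since 3′ end reads do not depend on length. A standard error was taken as |log2 fold change| divided by the root of F. The edgeR, DESeq2 and voom fits were also run on simulated counts without a replicate effect, which cannot speak for the replicate block. The gene-length offset and the deposited values were not run in this way. Whether counting used strand is not stated in these sources.

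The members were fixed by name and not by values, and the pathway lists were chosen by role, with earlier results of these data known. Named were the 10 members and, from each list, genes past the threshold, the 2 smallest p and the highest level. Deviations from group means correlated at 0.234, 0.345 and 0.204 between same-numbered libraries, and at most 0.0237 otherwise. Deviations cancel out within a group, so positive values for same numbers force the others down, and this contrast is partly built in. The block fits rest on taking the numbers to pair the libraries, although no label says what they share. The alternatives tried were scaling by upper quartile or RLE, a minimum of 2 CPM in 3 libraries or no filter, DESeq2 1.42.0, limma 3.58.1 voom, a gene-length offset, the deposited signal on log2(value + 1), the replicate block and leaving out each library.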

Additional observations from a re-analysis of the deposited data

How the results depend on the processing

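The count of genes called over the whole table was 344 of 15984 tested (2.15%). It became 1012 of 27439 genes with reads when no low-count filter was used. The count was 747 with DESeq2 (4.67%), 172 with the gene-length offset (1.08%) and 182 on the deposited normalized values (1.14%). With the replicate block it was 1300 (8.13%), and with 1 library left out 131 to 258. The count of members called, 0, became 1 with no filter and 1 with the replicate block, NQO1 in both, and was 0 in each fit with 1 library left out. The count of pathway genes called, 2 of 114 tested, became 11 of 121 genes with reads when no filter was used. It was 6 with DESeq2, 1 with the gene-length offset and 1 on the deposited values. With the replicate block it was 21, and with 1 library left out 0 to 2. The counts and shares over the whole table stand beside these. The block, which uses the pairing by number, changed no other call among the members. Leaving out both libraries numbered 3, chosen after seeing the data, gave 248, 0 and 2. With 1 library left out, the log2 fold change ran from -0.024 to 0.13 for KEAP1, -0.065 to 0.88 for HMOX1, -0.12 to 0.19 for GCLM, -0.070 to 0.34 for GSR, -0.20 to 0.27 for GPX4, -0.58 to 0.13 for TXNIP and -0.46 to 0.027 for SCD, so their directions are not settled. GCLM was also at -0.12 with the gene-length offset and -0.13 on the deposited values. The log2 ratio of NFE2L2 to BACH1, -0.18 between groups, became 0.43 with TPM. The causes were not tested. Over all members, 145 of 160 values under the alternatives kept direction and side of the threshold, 13 reversed, and the 2 NQO1 calls above passed it. Counting error was 1.94% to 9.12% of a member's level. It was below the spread within groups except for GCLC in ventral midbrain, and for GCLC in control it was 9.12% against a spread of 11.0%.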
